A study of Mus musculus with 10 samples.

Results

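The 10 genes described here were Fos, Fosb, Fosl1 and Fosl2 of the Fos family, Jun, Junb and Jund of the Jun family, and Atf3, Egr1 and Myc. They were chosen by symbol as classical immediate early genes, and each was present among the 23388 genes listed in all 4 expression tables of the series. The tables compare C2C12 cells, a mouse myoblast line that fuses into myotubes when serum is lowered, after depletion of the ubiquitin ligase Huwe1 or overexpression of the deubiquitinase USP10. At day 0 the cells were in growth medium with fetal bovine serum, and day 6 and day 8 count days in differentiation medium with horse serum. At day 0 and at day 6 the control was labelled wildtype and the Huwe1 knockdown carried lentiviral shRNAs introduced in myoblasts under puromycin selection. In day 8 myotubes the control carried a non-targeting RNA, and the shRNAs were introduced after differentiation had begun, again with puromycin. The hairpin sequences in the labels differ between day 8 and the earlier days, whereas the methods list 1 pair for myoblasts and myotubes, so which hairpins were used at day 0 and day 6 is not settled. The USP10 cells were a stable line carrying USP10 cDNA under the EF1a promoter and were collected at day 6. Infection or selection of the wildtype controls was not given in the sources used here, so at day 0 and day 6 the effect of Huwe1 depletion and the effect of virus and drug cannot be told apart.

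Each Huwe1 table holds 1 control library in 1 column and 2 knockdown libraries, 1 per shRNA, pooled in the other. In the USP10 table each column comes from 1 read file. Values are FPKM, fragment counts scaled to transcript length and to the number of mapped fragments. The tables were normalized separately, so a level in one table is set beside that in another only as a description. With 1 value per condition, no difference below has a replicate check, and no test was possible. A gene was compared within a table if it reached 1 FPKM in at least 1 of its 2 columns, and the log2 ratio of treated to control was taken after adding 0.01 FPKM to each value, which slightly understates the change of genes with very low values. At least 2-fold was used as the limit of size, and the share of all compared genes past that limit is given beside each count of members. The control columns were estimated at 21900000 fragments at day 0, 29900000 at day 6, 18200000 at day 8 and 7800000 in the USP10 table, and the USP10 column at 27700000. The USP10 table names for its control the same read file as the day 6 Huwe1 table, yet the FPKM values and the estimated depths of these 2 columns differ, and the library behind it could not be fixed. Huwe1 was at 38.3 FPKM in the control against 15.2 FPKM in the knockdown at day 0, at 35.1 and 21.9 FPKM at day 6, and at 55.4 and 33.0 FPKM at day 8. Usp10 was at 10.3 FPKM in the control against 38.3 FPKM in the USP10 cells. In the Huwe1 tables Usp10 was at 68.5 and 64.2 FPKM at day 0 and at 14.5 and 13.1 FPKM at day 8, but at day 6 it was at 13.2 FPKM in the control against 35.4 FPKM in the knockdown, 2.68-fold higher and close to the level of the USP10 cells.

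Immediate early genes are transcribed within minutes of a growth factor, serum or stress signal, without new protein synthesis, through factors such as SRF with its ternary complex partners and CREB that are already bound at their promoters. Jun proteins pair with each other or with Fos proteins through a leucine zipper to form AP-1, and the composition of the dimer sets its strength, since Junb and Jund are weaker activators than Jun on many sites and Fosl1 and Fosl2 lack the activation domain of Fos. In myoblasts, AP-1 activity and Myc are associated with proliferation and with restraint of MyoD. The time between the last medium change and the harvest was not given in the sources used here.

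Promoters of 7 of the 10 genes were found in the RefSeq table of build GRCm38.p6, and they were searched from 250 bases before to 50 bases after the annotated start for the sites through which immediate early genes are known to be induced. The table held none for Fosl1, Egr1 and Myc. The sequences of Fos, Junb, Fosl2 and Atf3 are shown 5′ to 3′ up to the base before the start, because the differences described below turn on these genes, with matches in capitals. Fos lies on the plus strand (chr12:85473640-85473889), Junb on the minus strand (chr8:84978749-84978998), Fosl2 on the plus strand (chr5:32136222-32136471) and Atf3 on the minus strand (chr1:191183334-191183583).
Fos: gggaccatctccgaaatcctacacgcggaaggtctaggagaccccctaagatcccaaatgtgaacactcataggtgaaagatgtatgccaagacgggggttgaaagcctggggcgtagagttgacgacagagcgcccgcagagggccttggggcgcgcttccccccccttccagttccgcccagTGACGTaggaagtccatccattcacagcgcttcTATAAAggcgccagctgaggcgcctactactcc
Junb: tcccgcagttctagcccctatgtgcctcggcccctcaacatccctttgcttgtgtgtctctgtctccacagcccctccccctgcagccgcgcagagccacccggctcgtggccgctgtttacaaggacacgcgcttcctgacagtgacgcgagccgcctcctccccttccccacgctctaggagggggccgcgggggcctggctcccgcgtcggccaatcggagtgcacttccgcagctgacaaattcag
Fosl2: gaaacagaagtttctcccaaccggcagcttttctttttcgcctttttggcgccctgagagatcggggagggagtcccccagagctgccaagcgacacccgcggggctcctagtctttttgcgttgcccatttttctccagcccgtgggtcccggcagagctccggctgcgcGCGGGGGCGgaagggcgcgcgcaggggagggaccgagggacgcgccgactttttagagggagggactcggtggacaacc
Atf3: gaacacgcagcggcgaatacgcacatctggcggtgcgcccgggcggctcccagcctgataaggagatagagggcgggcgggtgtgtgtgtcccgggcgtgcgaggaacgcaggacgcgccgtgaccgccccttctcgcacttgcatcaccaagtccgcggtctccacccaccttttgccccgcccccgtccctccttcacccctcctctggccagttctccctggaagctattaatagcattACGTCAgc

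The capitals in Fos mark TGACGT, the core of a cyclic AMP response element, with its first base 66 bases before the start, and TATAAA, 33 bases before it. In Fosl2 they mark a match to GCGNGGGCG, the site bound by Egr proteins, 79 bases before the start. Fosb held the same motif 50 bases before the start used for its window. That window (chr7:19310046-19310295, minus strand) overlaps the RefSeq span of Fosb, which ends at 19310118, so this motif lies inside the listed gene. Atf3 held TGACGT on the opposite strand, where it reads as ACGTCA, with its first base 8 bases before the start. No motif lay in the printed part of Junb, whose TATAAA began at the annotated start itself. Searched on both strands, TGACGT was present in 7.51% of 32851 promoters of the same length, GCGNGGGCG in 5.55% and TATAAA in 13.6%. The full palindrome TGACGTCA, which contains TGACGT, was present in 1.79%, the AP-1 site TGANTCA in 7.81%, the E-box CACGTG in 7.15% and the CArG box, the site of SRF, in 1.63%, and none of the 7 member promoters held any of these 4. A match is a description of these letters in this window, and a missing match says only that the letters are not in it.

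In the day 0 control the order of the members from high to low was Jund, Jun, Egr1, Myc, Fosl1, Fosl2, Junb, Atf3, Fos and Fosb, and in the day 6 control it was Jun, Junb, Jund, Atf3, Myc, Fosl2, Egr1, Fos, Fosb and Fosl1. Which neighbours in these orders differ beyond the spread between cultures is unknown. Jun was among the 3 most abundant members in every column. Jun (chromosome 4, 95049036 to 95052222), the strong activator of the family, was at 52.0 FPKM in the control against 65.3 FPKM in the Huwe1 knockdown at day 0, at 119.8 and 61.5 FPKM at day 6, and at 68.8 and 98.2 FPKM at day 8. In the USP10 table its control was at 68.2 FPKM and the USP10 cells were at 61.9 FPKM. Its log2 ratios of 0.33, -0.96, 0.51 and -0.14 all lay within 2-fold. The highest of the 8 values was that of the day 6 control of the Huwe1 table, and the other 7 spanned 52.0 to 98.2 FPKM.

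Junb (chromosome 8, 84976909 to 84978748), which pairs with Fos proteins but opposes Jun on many promoters, had the lowest log2 ratio of any member at day 6. It was at 15.3 FPKM in both columns at day 0. At day 6 it was at 74.2 FPKM in the control against 11.7 FPKM in the knockdown, a 6.32-fold lower value with a log2 ratio of -2.66. In day 8 myotubes the order was the opposite, with 61.5 FPKM in the control against 97.4 FPKM in the knockdown (log2 ratio 0.66). The USP10 cells were at 10.9 FPKM against 39.1 FPKM in their control, 3.60-fold lower. Differentiated controls held 39.1 to 74.2 FPKM of Junb and the day 0 control 15.3 FPKM, while the day 6 knockdown and the USP10 cells were both below the day 0 value.

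Jund (chromosome 8, 70697739 to 70700616), the family member usually expressed at rest rather than on stimulation, went the other way from Junb in all 3 comparisons of differentiated cells. Its values were 54.6 FPKM in the control against 32.3 FPKM in the knockdown at day 0, a log2 ratio of -0.76. At day 6 they were 31.7 and 93.7 FPKM, a 2.95-fold higher value in the knockdown. At day 8 they were 36.3 and 25.3 FPKM, a log2 ratio of -0.52. The USP10 cells held 153.4 FPKM against 48.1 FPKM, 3.19-fold higher and the highest value of any member in any column.

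As shares of the summed FPKM of Jun, Junb and Jund, the make-up of the family at day 6 differed more than its total. Junb made up 32.9% of the sum in the day 6 control and 7.03% in the day 6 knockdown, and Jund 14.0% and 56.1%. In the USP10 table Junb made up 25.2% in the control and 4.80% in the USP10 cells, and Jund 30.9% and 67.8%. The summed FPKM was 225.7 in the day 6 control and 166.9 in the knockdown, and 155.4 and 226.2 in the USP10 table. At day 8 the shares were nearer to each other, with Junb at 36.9% in the control and 44.1% in the knockdown and Jund at 21.8% and 11.5%. At day 0 Junb held 12.5% and 13.5%, and Jund 44.8% and 28.6%.

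**Figure D1:**
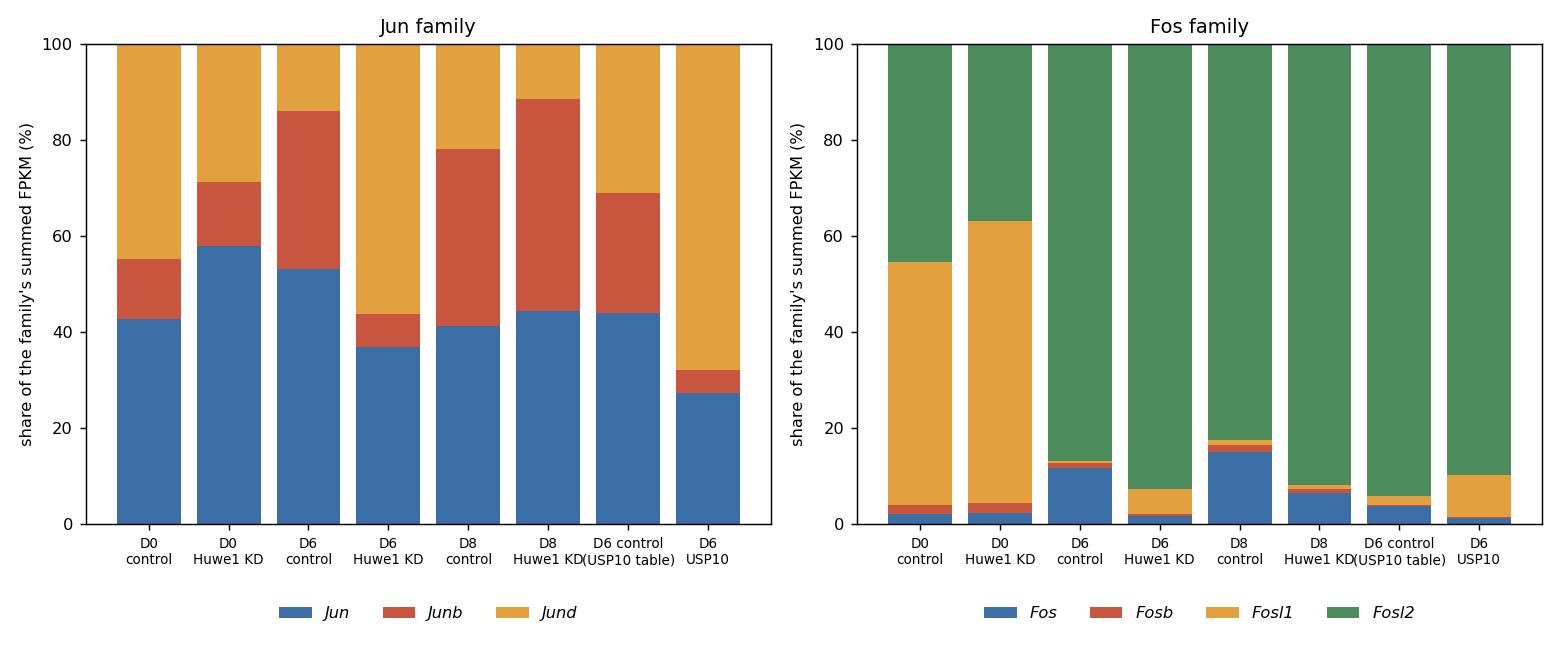
Share of the summed FPKM of the Jun family (left) and of the Fos family (right) held by each gene, in percent, in the 8 columns, with each bar summing to 100. Jund is the largest part of the Jun family in the day 0 control (44.8%), the day 6 Huwe1 knockdown (56.1%) and the USP10 cells (67.8%). Fosl1 is the largest part of the Fos family only in the 2 day 0 columns.

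Of the Fos family, the 2 members that are induced most sharply by serum were scarce. Fos (chromosome 12, 85473890 to 85477274) was at 0.797 FPKM in the control against 0.865 FPKM in the knockdown at day 0, under the 1 FPKM needed for a comparison. At day 6 it was at 2.72 FPKM in the control, about 171 fragments, and 0.687 FPKM in the knockdown, a 3.92-fold lower value. Day 8 gave 3.57 FPKM in the control against 1.99 FPKM in the knockdown (log2 ratio -0.84). In the USP10 table it was at 0.804 FPKM in the control, about 13 fragments, and 0.644 FPKM in the USP10 cells, and was not compared. The 95% exact Poisson interval of that control value, which covers counting error only, was 0.421 to 1.35 FPKM and did not reach the 2.72 FPKM of the other day 6 control. Fosb (chromosome 7, 19302696 to 19310118) stayed under 1 FPKM in all 8 columns, from 0.0655 to 0.810 FPKM, with its highest values at day 0, and took part in no comparison.

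Fosl1 (chromosome 19, 5447698 to 5455938), which encodes Fra-1, a Fos protein known from proliferating and migrating cells, differed between day 0 and the later days more than any other member. It was at 18.9 FPKM in the control against 22.4 FPKM in the knockdown at day 0 (log2 ratio 0.25). The day 6 control was at 0.101 FPKM, about 6 fragments with an interval of 0.0395 to 0.234 FPKM, and the knockdown was at 2.17 FPKM, a log2 ratio of 4.29. The USP10 cells were at 4.52 FPKM, about 233 fragments, against 0.389 FPKM in their control, about 6 fragments with an interval of 0.151 to 0.898 FPKM, which gave a log2 ratio of 3.50. At day 8 both columns were low, at 0.236 and 0.275 FPKM, and the gene was not compared. With a pseudocount of 1 FPKM the log2 ratios were 1.53 at day 6 and 1.99 for USP10, so the size of both ratios depended on the handling of low values while both stayed past 2-fold. The files list Fosl1 within the same locus as Ccdc85b, which overlaps its end on the opposite strand, and since the strand setting of the counting was not given in the sources used here, reads from the overlap could belong to either gene.

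Fosl2 (chromosome 5, 32136472 to 32157840), which encodes Fra-2 and is regarded as the more constitutive Fos protein, was the main Fos family transcript of differentiated cells. It was at 17.0 FPKM in the control against 14.0 FPKM in the knockdown at day 0, at 20.1 and 37.7 FPKM at day 6 (log2 ratio 0.91), and at 19.4 and 27.7 FPKM at day 8 (log2 ratio 0.51). USP10 cells were at 46.2 FPKM against 20.2 FPKM, 2.29-fold higher. The 4 control values lay within 17.0 to 20.2 FPKM, the smallest ratio of highest to lowest control of any member, and the 2 day 6 controls were nearly equal. At day 0 Fosl1 made up 50.6% and Fosl2 45.4% of the family's summed FPKM in the control, and at day 6 the control shares were 0.438% and 86.8%. The summed FPKM of the Jun family was 3.26 times that of the Fos family in the day 0 control and 9.74 times in the day 6 control, against 4.10 times in the day 6 knockdown, 7.25 times in the USP10 control and 4.39 times in the USP10 cells.

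**Figure D2:**
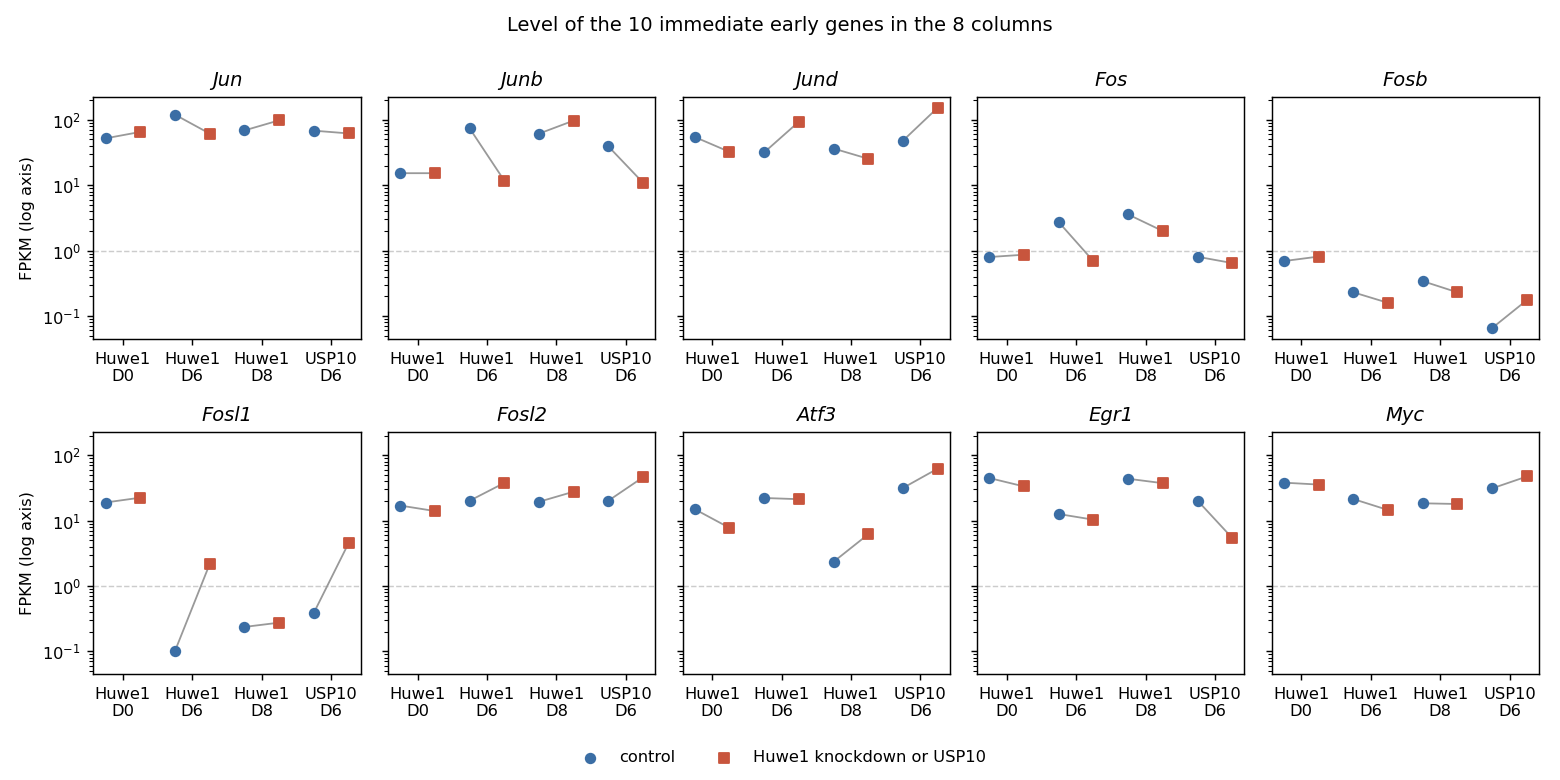
FPKM (log axis) of each of the 10 genes in the control column (circle) and the treated column (square) of the 4 tables, with a line joining the columns of a table and a dashed line at 1 FPKM. Each point is 1 deposited value, without replicates. Junb is at 74.2 FPKM in the day 6 control against 11.7 FPKM in the day 6 knockdown, and Fosl1 is above 10 FPKM only at day 0.

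Atf3 (chromosome 1, 191170296 to 191183333), a stress-induced factor of the ATF family that also pairs with Jun, was the 1 member past 2-fold in day 8 myotubes. There it was at 2.35 FPKM in the control, about 84 fragments, and 6.19 FPKM in the knockdown, 2.63-fold higher. At day 0 the order was the reverse, with 14.9 FPKM in the control against 7.74 FPKM in the knockdown (log2 ratio -0.95). The day 6 values of 22.2 and 21.2 FPKM were nearly equal. The USP10 cells held 62.4 FPKM against 31.6 FPKM, a 1.98-fold higher value that fell just short of the limit. Day 8 columns held the lowest Atf3 values of the 8, and the USP10 cells the highest.

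Egr1, a zinc finger activator induced through SRF, was at 44.8 FPKM in the control against 33.3 FPKM in the knockdown at day 0 (log2 ratio -0.43). It was at 12.6 and 10.3 FPKM at day 6 (log2 ratio -0.29) and at 43.6 and 37.3 FPKM at day 8 (log2 ratio -0.23), each within 2-fold. Centred on the housekeeping genes described below, the day 8 value was 0.13 and so turned in direction. In the USP10 table it was at 20.2 FPKM in the control against 5.40 FPKM in the USP10 cells, 3.73-fold lower. Myc (chromosome 15, 61985341 to 61990361), the growth factor-induced regulator of ribosome production and cell growth, was at 38.0 and 35.6 FPKM at day 0, at 21.4 and 14.5 FPKM at day 6 (log2 ratio -0.56) and at 18.4 and 17.9 FPKM at day 8 (log2 ratio -0.04, or 0.32 with that centring). USP10 cells were at 47.3 FPKM against 31.1 FPKM (log2 ratio 0.60). Egr1 was past 2-fold in the USP10 comparison alone, and Myc in none of the 4.

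Counted by comparison, 8 members could be compared at day 0, and 0 were at least 2-fold higher and 0 lower in the Huwe1 knockdown, where 1.90% of all 10874 compared genes were higher and 1.69% lower. At day 6, 9 could be compared, of which Fosl1 and Jund were higher and Fos and Junb lower, beside 17.6% and 13.4% of 11695 genes. At day 8, 8 could be compared, of which Atf3 was higher and 0 were lower, beside 7.89% and 10.0% of 11755 genes. With USP10, 8 could be compared, of which Fosl1, Fosl2 and Jund were higher and Junb and Egr1 lower, beside 9.70% and 10.0% of 11482 genes. A share of 2 of 9 in each direction is near the background at day 6, as is 1 of 8 at day 8. At day 6 Fosl1 was compared only because of its knockdown value, and Fos only because of its control value. When 1 FPKM was required in both columns, only Jund was higher and only Junb lower at day 6, beside 12.5% and 10.7% of 10292 genes. With USP10, 3 and 2 of 8 were past the limit, but Fosl1 was compared only because of its value in the USP10 cells, and it dropped out when 1 FPKM was required in both columns. The median log2 ratio of the members was -0.19, -0.29, 0.24 and 0.79 in these 4 comparisons, and that of all compared genes lay between -0.01 and 0.05.

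**Figure D3:**
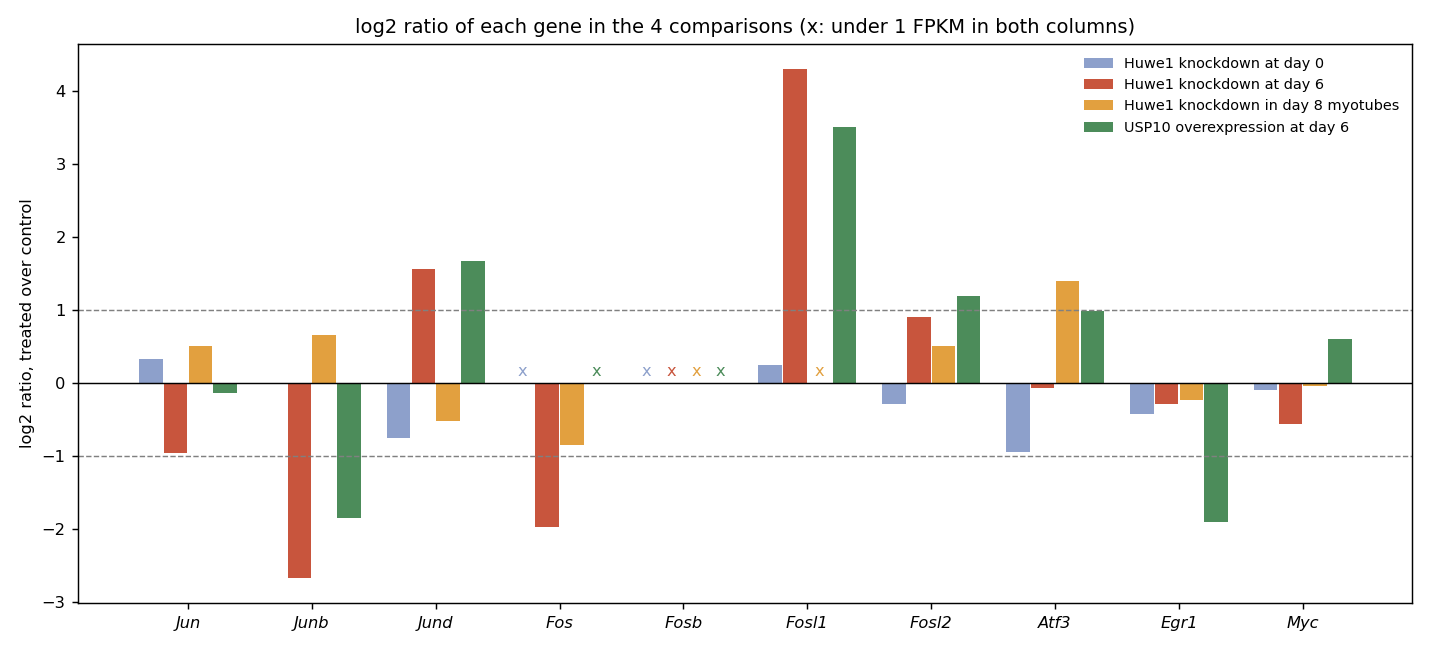
log2 ratio of treated to control FPKM for each gene in the 4 comparisons, with dashed lines at 2-fold and an x where a gene was under 1 FPKM in both columns. Junb is lower at day 6 (-2.66) and with USP10 (-1.85) and not at day 8 (0.66), and Fosl1 is the highest bar at day 6 (4.29) and with USP10 (3.50).

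The 2 day 6 control columns are the only values for nominally the same condition. Whether they come from separate cultures or from 1 library processed in different ways is not settled, and their tables were normalized separately. Set as the USP10 control over the Huwe1 control, 11.2% of 11459 genes were at least 2-fold higher and 8.66% lower. Among the members Fos was lower by 3.36-fold, and the log2 ratios of the others that could be compared were -0.92 for Junb, -0.81 for Jun, 0.68 for Egr1, 0.60 for Jund, 0.54 for Myc, 0.51 for Atf3 and 0.01 for Fosl2. The day 6 knockdown differed from its own control by log2 ratios of -1.97 for Fos, -0.96 for Jun and -0.56 for Myc, little more than the 2 control columns differed from each other, and by less than they did for Egr1 and Atf3.

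Set against the control of the USP10 table, a setting added after the values were seen, the day 6 knockdown was still past 2-fold for Fosl1 (log2 ratio 2.45) and Junb (-1.73), was at 0.96 for Jund and past the limit at -1.10 for Myc, and Fos could not be compared. In that setting 13.0% of 11696 genes were higher and 9.92% lower. The USP10 cells, set against the control of the Huwe1 table, were past 2-fold for Fosl1 (5.35), Fosl2 (1.20), Jund (2.27), Atf3 (1.49) and Myc (1.14) upward and for Junb (-2.77), Fos (-2.06) and Egr1 (-1.22) downward, beside 17.5% of 11597 genes higher and 15.5% lower. Since the tables name 1 read file for both controls, the comparisons may share a library, and their values are set side by side only.

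**Figure D4:**
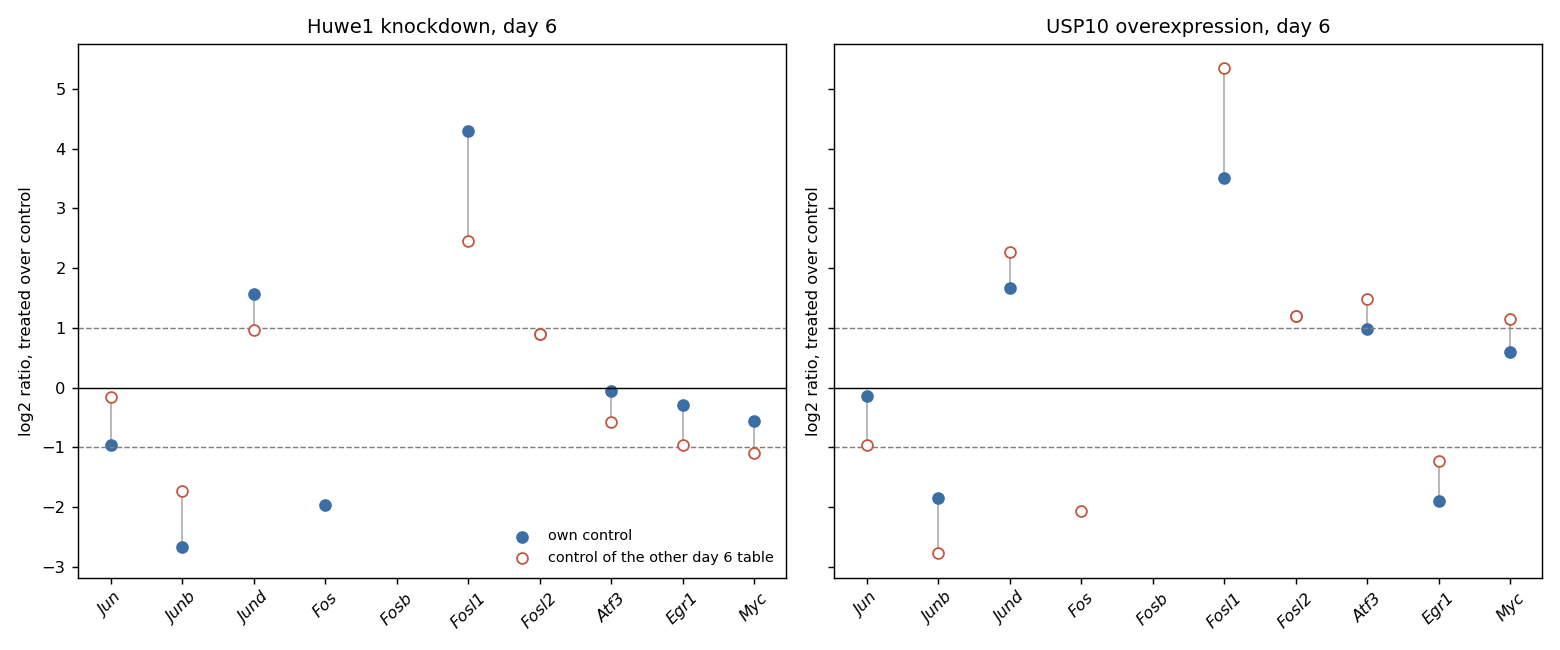
log2 ratio of the day 6 Huwe1 knockdown (left) and the USP10 cells (right) over the control of the same table (filled) and over the day 6 control of the other table (open), with dashed lines at 2-fold. No point is drawn where a gene was under 1 FPKM in both columns. Fosl2 is placed alike by both controls, and Jund in the knockdown moves from 1.56 to 0.96.

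Other immediate early genes lay past 2-fold in both directions. Of 34 listed, 32 were compared at day 6, of which 11 were at least 2-fold higher and 6 lower in the knockdown, with a median log2 ratio of 0.25, beside 17.6% and 13.4% of all genes. Klf4, a zinc finger factor, was at 6.90 FPKM in the control against 116.8 FPKM in the knockdown, and Ctgf, a secreted matrix protein induced through YAP and SRF, was at 6.04 and 260.3 FPKM. Ier2, a serum-induced nuclear protein, was at 29.7 and 7.01 FPKM, and Sgk1, a serum-induced kinase, at 44.0 and 12.7 FPKM. With USP10, 9 of 32 were higher and 3 lower (median 0.31), beside 9.70% and 10.0%, including Klf4 at 20.5 FPKM in the control against 127.8 FPKM in the USP10 cells and Ier2 at 16.9 and 5.86 FPKM. At day 8, 3 of 32 were higher and 5 lower (median -0.14), beside 7.89% and 10.0%, with the nuclear receptor Nr4a3 at 10.1 and 49.2 FPKM and the EGF family ligand Hbegf at 11.4 and 3.79 FPKM. At day 0, 2 of 34 were higher and 2 lower (median 0.02), beside 1.90% and 1.69%, and the higher pair named by the rule were Ptgs2, the inducible cyclooxygenase, at 9.14 and 44.1 FPKM, and Ctgf at 48.1 and 157.2 FPKM.

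Among genes that carry known AP-1 sites, 20 were listed. This list, like the others here, was chosen with earlier results of these data known, so its counts are a description only. A gene could also be compared through its value in 1 column alone. At day 6, 16 were compared, of which 12 were higher and 1 lower in the knockdown, with a median log2 ratio of 2.61, beside 17.6% and 13.4% of all genes. Ccnd1, cyclin D1, was at 1.03 FPKM in the control against 69.1 FPKM in the knockdown, and Plau, the urokinase protease, at 4.44 and 66.6 FPKM. With USP10, 7 of 15 were higher and 0 lower (median 0.99), beside 9.70% and 10.0%. The chemokine gene Ccl2 was at 2.14 and 33.1 FPKM in that comparison and Ccnd1 at 10.4 and 55.4 FPKM. At day 8, 1 of 13 was higher and 4 were lower (median -0.53), beside 7.89% and 10.0%. There Hmox1, heme oxygenase, was at 25.4 FPKM in the control against 93.4 FPKM in the knockdown, while Plau was at 24.2 and 11.8 FPKM. At day 0, 0 of 14 were past 2-fold in either direction (median 0.00), beside 1.90% and 1.69%, and Plau was at 110.9 and 64.3 FPKM.

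Markers of the state of the culture also differed at day 6, and the muscle and cycling cell genes did so at day 8 too. The summed FPKM of 10 muscle genes was 12851 in the day 6 control and 2797 in the knockdown, and 6141 and 3280 in the USP10 table. It was 10826 and 2640 at day 8 and 388.0 and 200.7 at day 0. Of the 10, 8 were at least 2-fold lower in the knockdown at day 6, 8 likewise at day 8, and 6 in the USP10 cells. The shares of all compared genes that were lower were 13.4%, 10.0% and 10.0% in these 3 comparisons. Myf5, a myoblast factor, was higher, at 3.51 and 18.5 FPKM at day 6 and at 4.79 and 20.2 FPKM in the USP10 table. Summed over 8 mesenchymal genes, the values were 124.8 and 4518 FPKM at day 6 and 511.0 and 4130 FPKM in the USP10 table, 507.6 and 802.1 FPKM at day 8 and 350.2 and 271.6 FPKM at day 0. Dcn, a matrix proteoglycan chosen after its values were seen, made up most of the treated sums at day 6, with 2987 FPKM in the knockdown and 3037 FPKM in the USP10 cells. Of this list 7 of the 7 that could be compared were higher at day 6 and 4 of 7 with USP10, beside 17.6% and 9.70% of all genes. Thy1 was at 0 FPKM in the day 6 columns of the Huwe1 table. Cycling cell genes summed to 4.42 and 22.5 FPKM at day 6, to 16.8 and 13.5 FPKM in the USP10 table, to 171.8 and 16.1 FPKM at day 8, and to 657.2 and 729.5 FPKM at day 0. At day 8, 8 of 8 cycling cell genes were at least 2-fold lower in the knockdown, beside 10.0% of all genes. At day 6, 7 of the 7 that could be compared were higher, beside 17.6%. With USP10, 0 of 7 were past 2-fold in either direction, beside 9.70% and 10.0%. Day 0 gave 0 of 8, beside 1.90% and 1.69%. For 12 markers of endothelial, immune, epithelial, adipocyte and neuronal cells the sums stayed between 2.73 and 14.5 FPKM in all columns. Adipoq was at 0 throughout. Cdh5, the endothelial cadherin, was highest in the myoblasts of day 0, at 13.5 FPKM (control) and 11.2 FPKM (knockdown). Its day 6 values were 0.0241 FPKM (control) and 6.83 FPKM (knockdown), and those of day 8 were 0.0134 and 0.00868 FPKM. The USP10 cells held 6.81 FPKM of Cdh5, against 0.278 FPKM for their control. In bulk RNA, fewer cells of a type and less RNA per cell cannot be told apart. The part of these markers in the values of the Fos, Jun and AP-1 target genes was not tested.

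Genes that act upstream of, or in feedback on, the immediate early response were counted in the same way. Of all compared genes, 17.6% were higher and 13.4% lower at day 6, and 9.70% and 10.0% with USP10. The shares were 7.89% and 10.0% at day 8, and 1.90% and 1.69% at day 0. Of 12 genes of ERK feedback, 11 were compared at day 6, of which 4 were higher and 2 lower (median 0.91), and Dusp4, a nuclear phosphatase of ERK, was at 3.19 FPKM in the control against 10.5 FPKM in the knockdown. With USP10, 4 of 10 were higher and 0 lower (median 0.53), with Dusp4 at 4.52 and 19.0 FPKM. At day 8, 1 of 11 was higher and 2 lower (median -0.71), and Spry2, an inhibitor of growth factor signalling, was at 23.1 and 51.1 FPKM. Day 0 gave 0 of 11 in either direction (median 0.20). For SRF, its ternary complex partners and MAP kinases, 22 of 23 listed symbols were found. Of those compared, 2 of 21 were higher at day 6 and 0 lower (median 0.13), including Elk3, a ternary complex factor, at 3.34 and 20.4 FPKM. In the other 3 comparisons 0 of 21 or 22 were past 2-fold.

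Partners of AP-1 and related bZIP factors were counted next. The lists overlap, so the same value can count in more than 1 of them. Maff is also among the other immediate early genes, and Creb1 among the upstream genes. Atf4, Atf5, Ddit3 and Cebpb are also among the genes of the ATF4 and stress response. Of 17 compared at day 6, 2 were higher and 0 lower (median 0.34), beside 17.6% and 13.4% of all genes. Maff, a small Maf protein, was at 5.11 FPKM in the control against 26.8 FPKM in the knockdown, and Atf2, a Jun partner, at 7.85 and 16.5 FPKM. With USP10, 3 of 17 were higher and 1 lower (median 0.37), beside 9.70% and 10.0%, with Maff at 9.96 and 46.0 FPKM and Atf2 at 20.0 and 56.6 FPKM. At day 8, 3 of 18 were higher and 0 lower (median 0.13), beside 7.89% and 10.0%, and at day 0, 0 of 17 in either direction (median 0.02). Beside Atf3, the higher genes of day 8 included Ddit3, the stress factor CHOP, at 47.6 FPKM in the control against 150.8 FPKM in the knockdown, and Cebpd at 2.88 and 13.5 FPKM.

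Genes of the ATF4 and stress response, the pathway in which Atf3 is best known, did not follow 1 direction. Among all compared genes the shares higher and lower were 7.89% and 10.0% at day 8, and 17.6% and 13.4% at day 6. They were 9.70% and 10.0% with USP10, and 1.90% and 1.69% at day 0. At day 8, 2 of 16 were higher and 4 lower (median 0.16). The lower genes included the serine synthesis genes Psat1 at 71.3 and 14.5 FPKM and Phgdh at 57.9 and 16.3 FPKM. Ddit3, at 47.6 and 150.8 FPKM, was among the higher. At day 6, 2 of 17 were higher and 1 lower (median -0.21). Asns, asparagine synthetase, was among the higher, at 205.4 and 471.1 FPKM, and Vldlr was the lower, at 57.9 and 4.75 FPKM. With USP10, 3 of 17 were higher and 1 lower (median 0.29). Asns at 197.8 and 697.5 FPKM and the cystine transporter Slc7a11 at 2.55 and 13.8 FPKM were among the higher. Vldlr was again the lower, at 21.7 and 5.81 FPKM. At day 0, 0 of 16 were higher and 1 lower (median -0.37). Chac1, an ATF4 target, was at 33.3 and 19.0 FPKM there, a lower value within 2-fold. Ddit3 at 57.1 and 67.9 FPKM and Atf4 at 209.4 and 248.8 FPKM were higher in the knockdown, also within 2-fold.

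Of 28 genes that Myc is known to activate, 0 were higher and 0 lower at day 0 (median 0.14), 0 higher and 3 lower at day 6 (median -0.57), 1 higher and 1 lower at day 8 (median -0.37), and 0 in either direction with USP10 (median 0.24). For these and the lists that follow, the shares of all genes higher and lower were 1.90% and 1.69% at day 0, and 17.6% and 13.4% at day 6. They were 7.89% and 10.0% at day 8, and 9.70% and 10.0% with USP10. At day 6 Odc1, the first enzyme of polyamine synthesis, was at 132.0 FPKM in the control against 40.4 FPKM in the knockdown. In the Myc and Max network, 1 of 9 genes was higher and 3 were lower at day 6 (median -0.36). Mxd1, a Max partner that represses Myc targets, was at 17.0 FPKM in the control against 1.72 FPKM in the knockdown, and Mycl, a relative of Myc, at 12.5 and 2.11 FPKM, while Mxi1 was at 10.1 and 29.1 FPKM. At day 8 Mxd1 was at 27.6 and 6.36 FPKM, with 1 of 10 genes of the network higher and 2 lower (median 0.18). With USP10, 0 of 9 were higher and 2 lower (median -0.15), and at day 0, 0 of 9 in either direction (median -0.14). Of Egr2, Egr3, Egr4 and the corepressors Nab1 and Nab2, 0 of 4 were higher and 1 lower at day 0 (median -0.16), 0 of 3 and 1 at day 6 (-0.07), 0 of 4 and 2 at day 8 (-1.32) and 0 of 3 and 1 with USP10 (-0.35).

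Housekeeping genes gave the scale against which these values stand. Of 20, 2 were higher and 1 lower at day 6 (median -0.01), among them Actb at 226.1 FPKM in the control against 860.2 FPKM in the knockdown and Tfrc at 70.4 and 21.3 FPKM. With USP10, 2 were higher and 0 lower (median 0.14), and at day 0, 0 in either direction (median -0.07). At day 8, 0 were higher and 1 lower, with a median of -0.35 beside 0.00 for all genes. Centred on that median, every day 8 log2 ratio is higher by 0.35, Junb at day 8 was past 2-fold at 1.02, and the share of genes higher in the knockdown was 15.4% and the share lower 6.97%.

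The genes whose profile over the 8 columns was most like that of a member were ranked by the Pearson correlation of log2 FPKM among 7704 genes, which is a description over 8 points that share tables and libraries. For Fos these were Abhd1 (0.97), Erc1 (0.97) and Dyrk2 (0.97), and for Fosl1 Mmd (0.99), Arl6ip6 (0.99) and Ccdc85b (0.99), the last being the neighbour listed in the same locus. Atf3 was nearest to Trib3 (0.98), a stress-induced pseudokinase, followed by Fam58b (0.95) and Lgals3 (0.94). Trib3 was at 17.5 and 12.2 FPKM at day 0, 44.5 and 28.3 FPKM at day 6, 5.63 and 9.78 FPKM at day 8, and 57.1 and 82.4 FPKM in the USP10 table. It was picked for its likeness to Atf3 over these same columns, so a shared direction is no separate evidence. At day 6 Atf3 itself was nearly equal in both columns, at 22.2 and 21.2 FPKM. Myc was nearest to Smndc1 (0.97), Aprt (0.96) and Fcf1 (0.95), and Aprt, a purine salvage enzyme, was at 34.4 FPKM in the USP10 control and 94.3 FPKM in the USP10 cells.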

How the data were processed

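RNA of 10 C2C12 libraries was measured, in 7 labelled groups. Directional libraries were made with the ScriptSeq v2 kit from poly(A) RNA selected on oligo(dT) beads, and the authors used Tophat for mapping and Cuffdiff for expression. The submitters' processing notes name Bowtie2, Cuffdiff and mm10, and no versions. The strand setting was not given in the sources used here. The deposited FPKM values, 1 per condition, were made by the authors with replicates pooled, and each of the 4 tables was normalized separately. The deposited tables also hold the authors' fold changes, p-values and q-values, which were not used.

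Genes with at least 1 FPKM in 1 column were compared by log2((treated + 0.01)/(control + 0.01)), with a limit of 2-fold and no test. The members and the 14 gene lists were chosen with earlier results of these data known. Genes were named from all 10 members, Huwe1, Usp10, per list and comparison at most the 2 largest log2 ratios in each direction among those that reached 10 FPKM in 1 column and 1 FPKM in both, and the 3 nearest profiles of Fos, Fosl1, Atf3 and Myc. The text gives only part of the genes that this rule names. Marker genes, with Myf5, Cdh5, Dcn, Thy1 and Adipoq, are given as sums or levels. Depth was estimated from the smallest FPKM steps of genes with 1 transcript of at least 1500 bases (GENCODE M21), and pooled columns gave no estimate. The arithmetic was tested on simulated data, which says nothing of the spread between cultures. Alternatives were pseudocounts of 0.1 and 1, minimums of 5 FPKM or of 1 FPKM in both columns, no filter, 2 centrings, completed estimates only, a 1.5-fold limit, equal column medians and, added after the values were seen, the other day 6 control. Positions are RefSeq, GRCm38. Python 3.11.15, numpy 2.4.6, pandas 2.3.3, scipy 1.17.1 and matplotlib 3.10.9 were used.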

Additional observations from a re-analysis of the deposited data

Results flagged for a closer look

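For 3 members the Huwe1 knockdown gave values at least 1.5-fold apart from control in opposite directions at 2 stages. No difference between stages was tested, since each stage has 1 value per condition, and at day 8 the shRNAs were introduced later and the control was of another kind than at day 0 and day 6. The labels also give other hairpin sequences for day 8, while the methods list 1 pair for all. For Junb the log2 ratio at day 8 minus that at day 6 was 3.32, from -2.66 at day 6 to 0.66 at day 8, on control levels of 74.2 and 61.5 FPKM. For Jund the log2 ratio at day 6 minus that at day 0 was 2.32, from -0.76 at day 0 to 1.56 at day 6, and it was 0.96 at day 6 with the other control. For Atf3 the log2 ratio at day 8 minus that at day 0 was 2.34, from -0.95 at day 0 to 1.40 at day 8, on control levels of 14.9 and 2.35 FPKM.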

How the results depend on the processing

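Over the alternatives, 306 log2 ratios of members were listed, of which 280 kept their side of the limit and moved by less than 1.5-fold, 26 did not, and 0 reversed a called direction. The minimums, the lack of a filter and completed estimates only left each ratio and its call unchanged by construction. The 1.5-fold limit could move only the call. A member no longer compared under a setting was not counted, so these counts say little of how firm the values are. All 80 levels moved by less than 1.5-fold with equal column medians. The column factors lay between 0.953 and 1.06, so this could not come out otherwise. All 12 profile correlations moved by less than 0.05. With at least 5 FPKM in 1 column, and likewise with 1 FPKM in both, the day 6 knockdown kept 1 member higher (Jund) and 1 lower (Junb), since Fos and Fosl1 were no longer compared. Of all genes compared there, 15.0% were higher and 12.6% lower under the first setting, and 12.5% and 10.7% under the second. Under the same settings Fosl1 was no longer called with USP10, which left 2 higher (Fosl2 and Jund), beside 8.57% and 7.1% of all genes. With the other day 6 control the day 6 knockdown had 1 higher, beside 13.0% of all genes, and the USP10 cells had 5, beside 17.5%. Centring on housekeeping genes gave 2 higher at day 8, beside 15.4% of all genes. At 1.5-fold, 2 were lower at day 0, beside 5.52% of all genes. At day 8, 2 were higher and 1 lower at that limit, beside 17.4% and 18.2%. With USP10, 5 were higher at that limit, beside 18.8%. With a pseudocount of 1 FPKM, 1.14% of all genes were higher and 0.809% lower at day 0 and 4.64% were higher at day 8, and without a filter 7.30% and 4.07% were higher and lower at day 0 and 15.5% lower at day 8. No paired analysis was possible because the tables hold no value per replicate, and for the same reason no library could be left out. With 1 value per condition, the spread between cultures is unknown, since the 2 day 6 control columns may come from 1 library, and Fosl1, Fos and Fosb rest on few fragments there.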
